A study of Homo sapiens with 8 samples.

Results

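The vacuolar proton pump of lysosomes was followed through 9 genes for its subunits and the gene of the transcription factor TFE3. The 10 genes were taken as a list of symbols, proposed with earlier results of these libraries known. All 10 stood once each among the 13841 rows of the count table. In all, 5 encode parts of the membrane sector V0 (TCIRG1, ATP6V0E1, ATP6V0B, ATP6V0C and ATP6V0D1) and 4 encode parts of the cytosolic sector V1 (ATP6V1A, ATP6V1C1, ATP6V1D and ATP6V1H). The RNA came from A549, an established line of epithelial cells from a human lung adenocarcinoma. All cells had been under cyclic stretch (15% elongation, 15 cycles per min) for 24 h and were then cultured for 6 days before they were sorted by β-galactosidase staining, a lysosomal activity used to mark senescent cells. Stained cells, called positive here and labelled Senescent, gave 4 libraries (numbers 1, 3, 4 and 5), and unstained cells, called negative and labelled Non_senescent, gave the other 4 (numbers 2, 6, 7 and 8). Every group had been stretched, and unstretched cells were not analysed here. The groups are 1 cell line parted by a stain, and nothing in the labels tells whether each library had a culture of its own. The p-values therefore reflect spread among these libraries alone, and that spread may be technical.

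The pump is a rotary machine. The V1 sector splits ATP in the cytosol and turns a central stalk, and the V0 sector in the membrane carries protons inward through a ring of proteolipids that slides past the a subunit. The acid it makes is needed by lysosomal hydrolases, and the sectors can come apart and join again, which switches the pump off and on. TFE3 belongs, with TFEB, MITF and TFEC, to the MiT/TFE family, which binds short palindromic DNA elements near lysosomal genes, subunits of the pump among them, and is held in the cytosol when the kinase complex mTORC1 is active at the lysosome.

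Library totals ran from 5634961 to 7990839 counts, the lowest in positive 1 and the highest in negative 2, and these 2 libraries also stood apart in several of the genes below. All 6 epithelial markers checked (KRT8, KRT18, EPCAM, AKR1B10, AKR1C1 and CDH1) were counted. Their sum was 3796 to 4716 CPM (counts scaled to the library total) in positive libraries against 4731 to 4972 in negative ones. AKR1B10 held the largest part, with means of 2128 and 2700 CPM after the scaling described below, while EPCAM was at 15.7 and 16.6. The log2 fold changes of all 6 were below 0. Of 5 fibroblast markers 4 were in the table, with sums of 9.18 to 13.8 CPM against 6.26 to 10.35, and of 3 endothelial markers only CDH5 was, at up to 1.21 CPM. CD14 was the only one of 4 leukocyte markers in the table, at 11.2 to 17.3 CPM against 4.38 to 16.7, and none of the 3 osteoclast markers was in it. The part of these marker levels in the results was not tested. In these bulk libraries, fewer cells of a kind and less RNA per cell cannot be told apart.

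TCIRG1 and TFE3 were higher in stained cells, at 1.57 times the level in unstained cells for each, and 7 of the other 8 genes had estimates below 0, while none passed the adjusted threshold. All 10 genes were tested, by edgeR's quasi-likelihood test over 11351 genes, where 0% of genes passed an adjusted p of 0.05 and 14.4% had an unadjusted p under 0.05 (1631 genes). DESeq2's Wald test passed 52 genes at an adjusted p of 0.05, none of the 10 among them, and limma voom passed 0. Of the 10 genes, 5 were under that unadjusted level, 2 higher (TCIRG1 and TFE3) against a background of 7.52% of genes, and 3 lower (ATP6V0E1, ATP6V0D1 and ATP6V1D) against 6.85%. The 4 values of each group were apart for 2 genes on the higher side, where 5% of all genes were, and for 2 on the lower side (ATP6V0E1 and ATP6V1D), where 4.14% were. The median log2 fold change was -0.28 over the 10 genes and -0.019 over all genes tested. The genes were proposed with earlier results of these libraries known, so these counts describe them and are no independent evidence. Levels below are CPM scaled by the trimmed mean of M values (TMM), an adjustment for library composition, and fold changes are of positive over negative. Amplification differs between amplicons, so levels are compared between groups and not between genes.

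**Figure D1:**
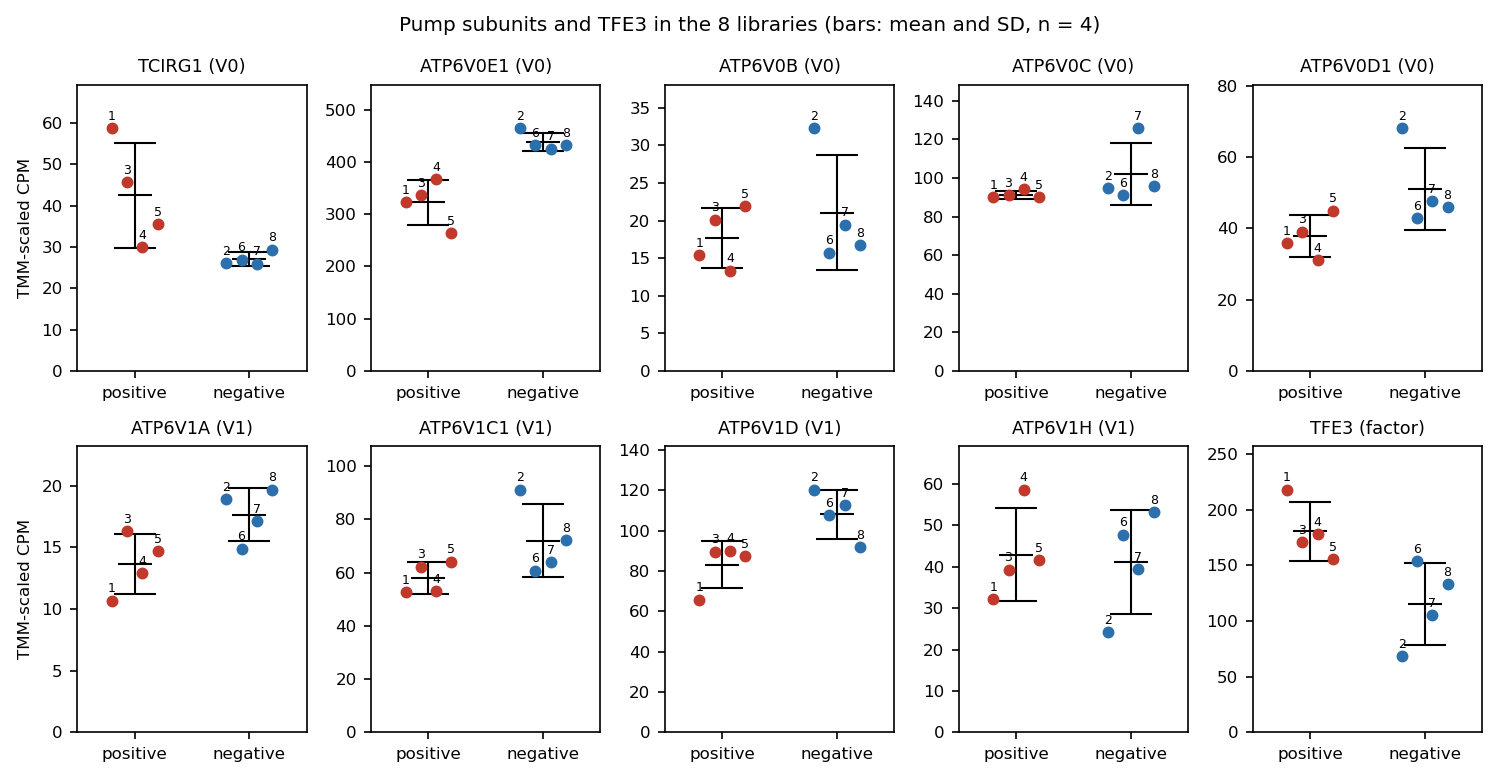
TMM-scaled CPM (vertical axes, each starting at 0) of the 5 V0 genes, the 4 V1 genes and TFE3 in the 4 positive (red) and 4 negative (blue) libraries. Points carry the library number and bars give mean and SD. All positive libraries lay above all negative ones for TCIRG1 and TFE3 and below them for ATP6V0E1 and ATP6V1D, and the groups overlapped for the other 6 genes.

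TCIRG1 encodes the a3 form of the a subunit, the stator of V0 past which protons move, and is best known from osteoclasts and lysosome-related organelles. Its level was 58.7, 45.7, 30.0 and 35.5 CPM in positive 1, 3, 4 and 5 and 26.03, 26.9, 25.9 and 29.4 CPM in negative 2, 6, 7 and 8. The negative libraries were tightly grouped and the positive ones were spread, with positive 4 only just above negative 8 and positive 1 at the top. Means were 42.5 ± 12.6 and 27.1 ± 1.60 CPM (SD, n = 4 each). The log2 fold change was 0.65 ± 0.22 (SE, 95% interval 0.17 to 1.12; edgeR adjusted p = 0.309). The unadjusted p stayed under 0.05 in all 17 alternative settings, and the log2 fold change was 0.45 without positive 1. TCIRG1 lies on chromosome 11 at 68039016 to 68050895 (GRCh38, GENCODE).

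Other forms of the a subunit did not part the groups. For ATP6V0A2 the positive libraries held 26.03 to 32.4 CPM and the negative ones 17.6 to 32.2, a log2 fold change of 0.44 (95% interval -0.053 to 0.92; edgeR adjusted p = 0.379), and ATP6V0A1 was at 28.5 to 33.0 and 18.5 to 44.8 CPM, or 0.077 (-0.48 to 0.63). ATP6V0A4 had 0 to 8 counts per library and was not tested. The log2 ratio of TCIRG1 to ATP6V0A1 was 0.45 higher in the positive libraries (exact two-sided permutation p = 0.229, and 0.381 adjusted over 5 ratios of related subunits) and that of TCIRG1 to ATP6V0A2 was 0.13 higher (exact permutation p = 0.686, adjusted 0.857). The smallest p that 4 against 4 libraries allow is 0.0286. A larger change in TCIRG1 than in its relatives was therefore not shown.

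ATP6V0E1 encodes the small e1 subunit of V0, a membrane protein of the proton channel part. Its level was 323, 336, 367 and 263.5 CPM in positive 1, 3, 4 and 5 and 464, 432, 425.5 and 431.5 CPM in negative 2, 6, 7 and 8. Every positive library was below every negative one, and the negative libraries differed little apart from negative 2. Means were 322 ± 43.3 and 438 ± 17.7 CPM (SD, n = 4 each). The log2 fold change was -0.44 ± 0.16 (SE, 95% interval -0.79 to -0.10; edgeR adjusted p = 0.312). The unadjusted p was 0.0602 without positive 5 and under 0.05 in the other 16 settings. ATP6V0E2, the related e2 gene, was at a log2 fold change of -0.17 (-0.66 to 0.32). ATP6V0E1 lies on chromosome 5 at 172983757 to 173035445. It has 4 annotated pseudogenes, none with a row in the table, and whether reads from such copies were counted apart cannot be told.

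ATP6V0D1 encodes the d1 subunit, which caps the proteolipid ring and joins it to the stalk of V1. Its level was 35.9, 39.1, 31.0 and 45.0 CPM in positive 1, 3, 4 and 5 and 68.0 CPM in negative 2, with 42.8, 47.5 and 45.9 CPM in negative 6, 7 and 8. Negative 2 was far above the rest, and positive 5 stood above negative 6, so the groups overlapped. The log2 fold change was -0.44 ± 0.20 (SE, 95% interval -0.87 to -0.0034; edgeR adjusted p = 0.345), and -0.25 without negative 2. The unadjusted p was under 0.05 in 5 of 17 alternative settings. ATP6V0D2 had 0 to 3 counts per library and was not tested. ATP6V0D1 lies on chromosome 16 at 67438014 to 67481237.

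ATP6V0B and ATP6V0C encode the c'' and c proteolipids, which form the ring that carries protons. ATP6V0B was at 15.4, 20.1, 13.3 and 21.9 CPM in positive 1, 3, 4 and 5 and at 32.3, 15.7, 19.4 and 16.7 CPM in negative 2, 6, 7 and 8. Negative 2 was again the highest and the other 7 libraries were mixed, at a log2 fold change of -0.25 (95% interval -0.83 to 0.33; edgeR adjusted p = 0.654) that turned to 0.049 without negative 2. ATP6V0C was at 89.9, 90.9, 94.1 and 89.9 CPM in positive 1, 3, 4 and 5 and at 94.8, 91.0, 125.8 and 95.8 CPM in negative 2, 6, 7 and 8. The libraries other than negative 7 were close together, and the log2 fold change was -0.16 (-0.51 to 0.19; edgeR adjusted p = 0.633). The log2 ratio of ATP6V0C to ATP6V0B was 0.068 higher in the positive libraries (exact permutation p = 0.857, adjusted 0.857). ATP6V0B lies on chromosome 1 at 43974487 to 43978295 and ATP6V0C on chromosome 16 at 2513870 to 2520218. ATP6V0C has 4 annotated pseudogenes without rows of their own. It also overlaps 2 other annotated protein-coding genes on its own strand that have no row. Whether its counts hold reads of these cannot be told.

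Start regions (250 bases before to 50 bases after each annotated start, RefSeq, GRCh38.p14) were found for TCIRG1, ATP6V0B, ATP6V0C, ATP6V0D1, ATP6V1D and TFE3. They were searched on both strands for CACGTG, a core of elements that MiT/TFE factors bind. Searched too were the longer forms TCACGTG and GTCACGTG, each of which contains the one before. CACGTG was in 7.26% of all 35116 start regions of that length, TCACGTG in 3.71% and GTCACGTG in 2.40%. ATP6V0B and ATP6V0D1 held all 3 forms. The first base of CACGTG lay at -57 and -39 from the start in ATP6V0B and at -59 in ATP6V0D1. The windows of the other 4 genes held none of these forms, at either of the 2 starts listed for TCIRG1 and for ATP6V0C. Forms that differ from CACGTG by a letter were not searched for. A window without these forms may therefore still hold another that the factors bind. The regions of ATP6V0B and ATP6V0D1 are shown because they carry CACGTG. The first of TCIRG1 is shown because its RNA was on the other side of 0. Capitals mark CACGTG, and a match is only a description of the letters.
ATP6V0B, chr1:43974710-43975009, plus strand: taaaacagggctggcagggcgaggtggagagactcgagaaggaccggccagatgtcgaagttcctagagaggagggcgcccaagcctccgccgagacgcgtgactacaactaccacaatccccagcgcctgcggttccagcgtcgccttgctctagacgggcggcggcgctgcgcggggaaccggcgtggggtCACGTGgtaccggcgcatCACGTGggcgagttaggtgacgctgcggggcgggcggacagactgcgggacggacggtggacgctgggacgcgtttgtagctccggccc
ATP6V0D1, chr16:67481108-67481407, minus strand: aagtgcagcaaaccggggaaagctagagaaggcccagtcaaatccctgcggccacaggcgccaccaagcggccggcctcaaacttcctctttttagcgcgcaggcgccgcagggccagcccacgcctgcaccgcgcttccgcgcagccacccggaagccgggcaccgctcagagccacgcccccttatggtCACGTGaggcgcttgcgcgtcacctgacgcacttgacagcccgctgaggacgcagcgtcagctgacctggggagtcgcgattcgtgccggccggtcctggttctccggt
TCIRG1, chr11:68038775-68039074, plus strand: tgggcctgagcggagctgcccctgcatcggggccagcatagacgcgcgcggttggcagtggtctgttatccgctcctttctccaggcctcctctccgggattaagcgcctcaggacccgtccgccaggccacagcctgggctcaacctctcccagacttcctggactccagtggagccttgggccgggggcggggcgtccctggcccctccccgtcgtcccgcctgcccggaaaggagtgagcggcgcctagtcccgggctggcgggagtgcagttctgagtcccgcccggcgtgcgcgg

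Of the 4 V1 genes followed, ATP6V1D was the only one whose groups did not overlap. It encodes the D subunit, the axle of the central stalk. Its level was 65.9, 89.6, 90.2 and 87.3 CPM in positive 1, 3, 4 and 5 and 120, 108, 113 and 92.0 CPM in negative 2, 6, 7 and 8. Each positive library was below each negative one, though positive 4 and negative 8 nearly met. Means were 83.3 ± 11.6 and 108 ± 12.01 CPM (SD, n = 4 each). The log2 fold change was -0.38 ± 0.17 (SE, 95% interval -0.74 to -0.012; edgeR adjusted p = 0.339). The unadjusted p was under 0.05 in 5 of 17 alternative settings, and the log2 fold change was -0.21 without both positive 1 and negative 2. ATP6V1D lies on chromosome 14 at 67294371 to 67360265 and overlaps MPP5 and EIF2S1 on the opposite strand, which were at log2 fold changes of -0.56 and -0.86. No source used here states how strand was used in counting, so reads of these 3 genes may not be fully parted. Annotated genes without rows, none of them coding, also overlap TCIRG1, ATP6V0E1, ATP6V0B, ATP6V1A and ATP6V1C1. Whether their reads were counted apart cannot be told.

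Of the other V1 genes, ATP6V1A encodes the catalytic A subunit, ATP6V1C1 a C subunit that ties the stators of both sectors together, and ATP6V1H the H subunit that regulates joining of the sectors. ATP6V1A was at 10.7, 16.3, 12.9 and 14.7 CPM in positive 1, 3, 4 and 5 and at 18.9, 14.9, 17.1 and 19.7 CPM in negative 2, 6, 7 and 8, with positive 3 above negative 6. Its log2 fold change was -0.37 (95% interval -0.82 to 0.080; edgeR adjusted p = 0.407). ATP6V1C1 was at 52.6, 62.2, 53.2 and 64.1 CPM and at 91.2, 60.8, 63.9 and 72.2 CPM in the same order, the groups overlapping and negative 2 far above. Its log2 fold change was -0.31 (-0.69 to 0.071; adjusted p = 0.410), and -0.16 without negative 2. ATP6V1H was at 32.2, 39.3, 58.6 and 41.7 CPM and at 24.3, 47.7, 39.4 and 53.2 CPM, fully mixed, at 0.064 (-0.49 to 0.62; adjusted p = 0.918). Here negative 2 was the lowest library, where it was the highest for ATP6V1C1. ATP6V1A lies on chromosome 3 at 113747019 to 113812056, ATP6V1C1 on chromosome 8 at 103021063 to 103073051 and ATP6V1H on chromosome 8 at 53715557 to 53843558.

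The sectors were set against each other over their members. Median log2 fold changes were -0.25 over the 5 V0 genes and -0.34 over the 4 V1 genes, a difference of 0.089. Library by library, the mean log2-CPM of the V0 genes ran from 5.75 to 6.02 in positive and 5.89 to 6.25 in negative libraries, which overlap. The mean of the V1 genes ran from 5.06 to 5.46 in positive and 5.55 to 5.69 in negative libraries, which do not, with positive 1 well below the rest. V0 minus V1 was 0.56 ± 0.26 in positive and 0.45 ± 0.18 in negative libraries (SD, n = 4 each), a gap within the spread of either group. Of the 5 V0 genes, TCIRG1 had an estimate above 0 and the other 4 below, though ATP6V0B was at 0.049 without negative 2. TCIRG1 was set apart with these values known, so the contrasts that follow are no independent evidence. TCIRG1 minus the mean of the other V0 genes was -1.03 to -0.11 log2 units in positive and -1.92 to -1.35 in negative libraries, without overlap. The mean of the V0 genes without TCIRG1 was 5.95 to 6.14 in positive and 6.18 to 6.64 in negative libraries, also without overlap. No test is given for these means, since the genes were chosen with results known. The means are TMM-scaled, with factors of 1.02 to 1.07 in positive and 0.86 to 1.06 in negative libraries, the lowest in negative 2. These factors are not small beside the gaps between groups. Whether either separation of means holds without that scaling was not tested. With library totals alone, the median log2 fold changes were -0.11 over the V0 genes and -0.22 over the V1 genes.

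**Figure D2:**
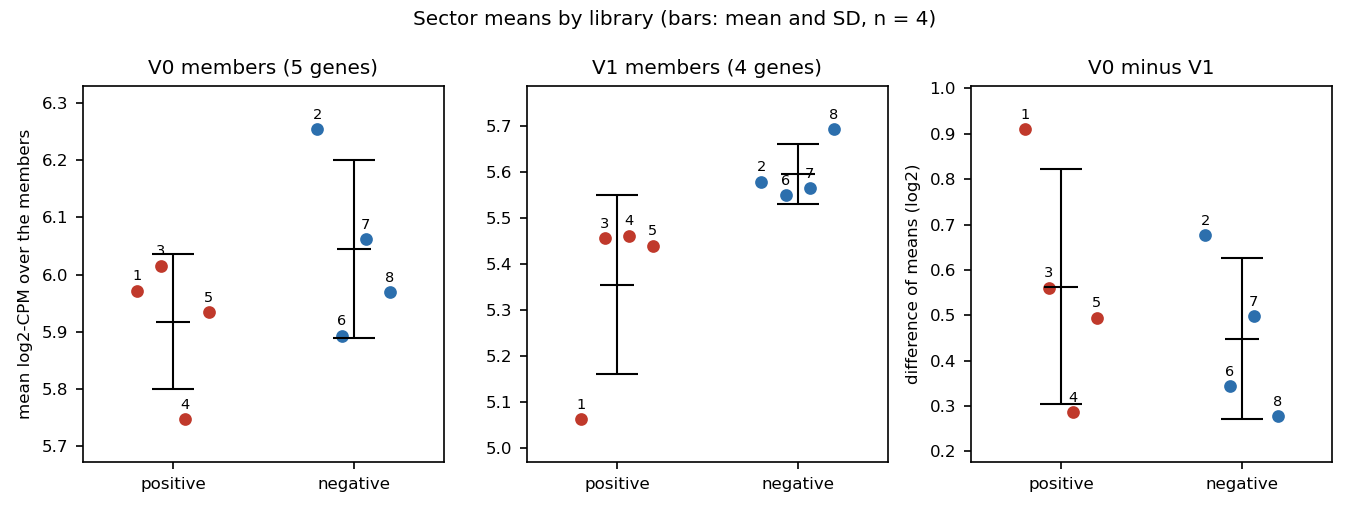
Mean log2-CPM (vertical axes, not starting at 0) over the 5 V0 genes and the 4 V1 genes, and their difference, in positive (red) and negative (blue) libraries, with library numbers, group means and SD. With TMM scaling, V1 means did not overlap between groups and V0 means did. V0 minus V1 was mixed, from 0.29 to 0.91 in positive and 0.28 to 0.68 in negative libraries.

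The rest of the pump was mixed as well. Of 15 further subunit genes 13 were in the table and 9 were tested, 1 higher and 2 lower at an unadjusted p under 0.05 (14.4% of all genes) and none at an adjusted p, with a median log2 fold change of -0.030. ATP6V1E1, a peripheral stalk subunit, had 85.8 to 121 CPM in the positive libraries, all under the 123.5 to 185 of the negative ones, at -0.55 ± 0.18 (SE; edgeR adjusted p = 0.309). RNASEK, a small subunit of V0, was at 155 ± 34.5 and 239 ± 76.2 CPM (SD, n = 4 each) with overlap, at -0.63 ± 0.24 (adjusted p = 0.317). ATP6V1B1, the B1 form of the nucleotide-binding B subunit known from acid-secreting epithelia, was at 28.5, 13.6, 9.86 and 8.91 CPM in positive 1, 3, 4 and 5 and at 4.07, 7.62, 6.64 and 10.27 CPM in negative 2, 6, 7 and 8. Positive 1 was far above the rest and negative 8 above positive 4 and 5, at a log2 fold change of 1.08 ± 0.39 (SE; adjusted p = 0.312). The widespread form ATP6V1B2 was at -0.030 (95% interval -0.56 to 0.50), and the log2 ratio of B1 to B2 was 0.96 higher in the positive libraries (exact permutation p = 0.0571, adjusted 0.286). ATP6V1G1 was at 0.10 (-0.23 to 0.43) and ATP6V1E2 at -0.12. ATP6V1F and ATP6V1G2 had at most 10 counts in any library and were not tested, and such counts from amplicons need not mean little RNA.

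**Figure D3:**
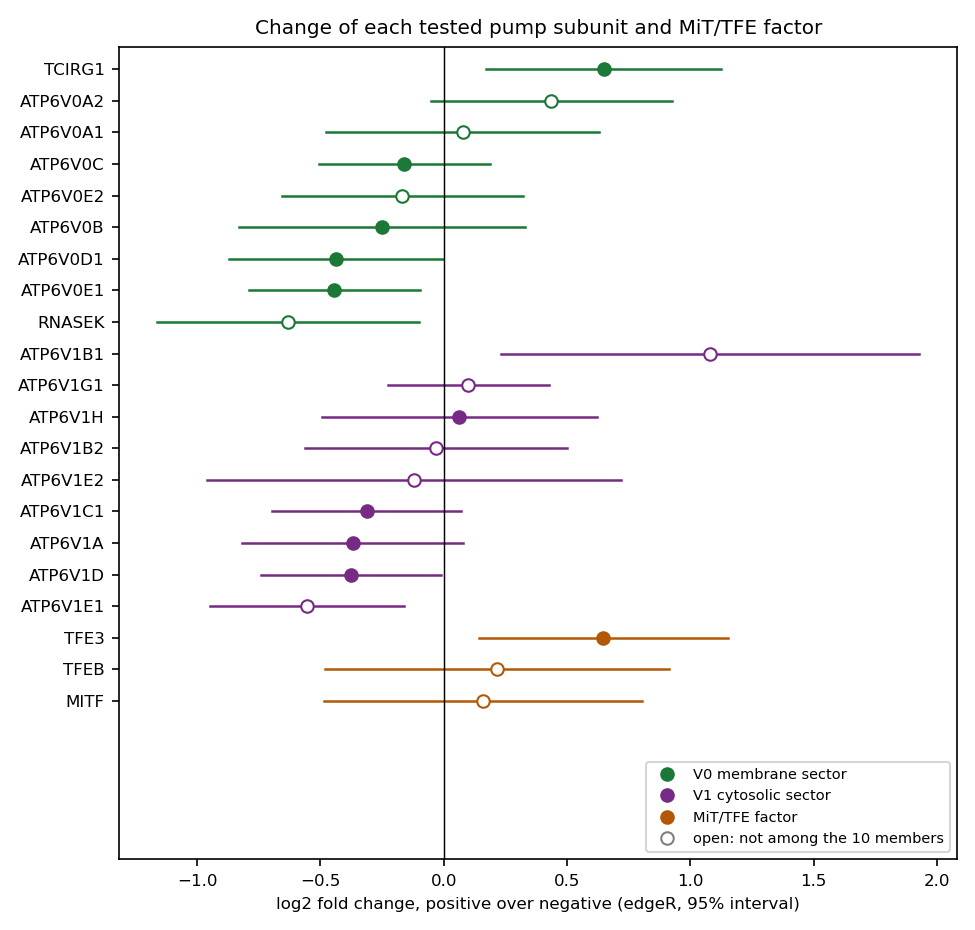
Log2 fold change of positive over negative libraries with its 95% interval (edgeR) for the 18 tested pump subunits and 3 MiT/TFE factors, by sector. Filled points are the 10 genes followed here and open points other subunits and factors. TCIRG1, TFE3 and ATP6V1B1 have intervals above 0, and ATP6V0E1, ATP6V0D1, ATP6V1D, ATP6V1E1 and RNASEK below 0.

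TFE3 RNA was 218, 171, 178 and 156 CPM in positive 1, 3, 4 and 5 and 68.8, 154, 105 and 133.5 CPM in negative 2, 6, 7 and 8. The groups were apart by a narrow margin, between positive 5 and negative 6, with negative 2 far below. Means were 181 ± 26.6 and 115 ± 36.9 CPM (SD, n = 4 each). The log2 fold change was 0.65 ± 0.23 (SE, 95% interval 0.14 to 1.15; edgeR adjusted p = 0.312). The unadjusted p stayed under 0.05 in all 17 alternative settings, while the log2 fold change was 0.48 without negative 2 and 0.38 without both positive 1 and negative 2. TFE3 activity is set largely by where the protein sits, which RNA does not report. Its relatives TFEB, at 7.29 ± 1.14 and 6.29 ± 2.60 CPM (SD, n = 4 each), and MITF, at 4.06 ± 1.02 and 3.65 ± 0.68 CPM, had log2 fold changes of 0.22 (95% interval -0.48 to 0.91) and 0.16 (-0.49 to 0.80). Whether TFE3 differed from them in its change was not tested. TFE3 lies on chromosome X at 49028726 to 49043486.

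Other targets of the MiT/TFE factors were taken from a list of 25 lysosomal and autophagy genes. Of 19 tested, none had an unadjusted p under 0.05 by edgeR, where 14.4% of all genes did. Estimates were above 0 for 12 and below for 7, against 5460 above and 5891 below over all genes. The median log2 fold change was 0.14, against -0.019 over all genes. Negative 2 was the lowest library for several of the higher genes. CTSD was at 240 CPM there, against 458 to 595 in negative 6, 7 and 8. PSAP was at 222 against 554 to 570 and NAGLU at 11.3 against 24.4 to 28.6. For GLA, with an estimate below 0, negative 2 was the highest (162 CPM). Whether the list leans upward without negative 2 was not tested. Among those with the smallest p were SGSH, which encodes a sulfatase of heparan sulfate, at 0.56 (95% interval -0.065 to 1.182), and the glycosidase NAGLU at 0.47 (-0.13 to 1.07). GPNMB, LAMP1 and SQSTM1 were nearly uncounted, with at most 17 counts in any library, and were not tested. Since amplification differs between amplicons, so few counts need not mean little RNA of these genes.

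Genes that assemble or accompany the pump were followed in a list of 15, of which 14 were tested, 1 higher and 2 lower at an unadjusted p under 0.05, where 7.52% and 6.85% of all genes were. TMEM199, an assembly factor of the pump, had means of 25.4 ± 1.23 and 38.4 ± 7.40 CPM (SD, n = 4 each), at a log2 fold change of -0.59 ± 0.19 (SE; edgeR adjusted p = 0.309). DMXL1 and WDR7, of the complex that helps V1 join V0, were at 0.93 ± 0.38 and -0.56 ± 0.24 (adjusted p = 0.321 and 0.324). The accessory subunits ATP6AP1 and ATP6AP2 were at 0.18 (-0.24 to 0.61) and -0.024 (-0.38 to 0.34).

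A list around nutrient sensing at the lysosome held 20 genes, all tested. At an unadjusted p under 0.05, 1 was higher and 2 lower, a share near the 14.4% of all genes. The median log2 fold change of the list was -0.099. RRAGA and RRAGC, Rag GTPases that recruit mTORC1 and TFE3 to lysosomes, were at 45.8 ± 5.01 and 63.6 ± 5.72 CPM and at 29.8 ± 6.77 and 45.6 ± 11.3 CPM in positive and negative libraries (SD, n = 4 each). Their log2 fold changes were -0.47 ± 0.16 and -0.61 ± 0.23 (SE; edgeR adjusted p = 0.309 and 0.313). The groups did not overlap for RRAGA. For RRAGC they did, with negative 2 the highest (60.3 CPM) and positive 1 the lowest (20.7 CPM). RPTOR, the scaffold of mTORC1, was at 0.51 ± 0.21 (adjusted p = 0.324). Its level was 51.6 CPM in positive 1 and 31.6 to 32.4 CPM in positive 3, 4 and 5, all above the negative libraries. FLCN, which turns on RRAGC and RRAGD and so lets mTORC1 act on TFE3, was at 0.37 (-0.052 to 0.78).

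Across the 8 libraries, 4 of the 45 pairs of genes had a Pearson r above 0.8 and 4 had one below -0.8, given here as a description, and the pairs below are mostly from these extremes. TFE3 ran against ATP6V0D1 (Pearson r = -0.91, Spearman rho = -0.95) and ATP6V1C1 (-0.90 and -0.83) and with TCIRG1 (0.70 and 0.88). After the group means were taken out, r was -0.84 and -0.83 for the first 2 pairs and 0.36 for TFE3 with TCIRG1. Without positive 1 and negative 2 the 3 values were -0.75, -0.56 and 0.58. ATP6V0D1 ran with ATP6V1C1 (r = 0.95, rho = 0.88) and ATP6V0B (0.89 and 0.74), at 0.85 and 0.66 without those libraries. TFE3 and ATP6V0B were at -0.79, and at -0.31 without them. ATP6V1D, whose start region holds no CACGTG, was at -0.84 with TFE3 (rho = -0.88), and at -0.69 without them. Whether CACGTG bears on any of these values was not tested. ATP6V0C had r between -0.47 (TCIRG1) and 0.48 (ATP6V1D) over its 9 pairs. By rank these pairs were stronger, at rho = -0.81 with TCIRG1 and 0.81 with ATP6V1D. With TFE3 its r was -0.44, and -0.88 without positive 1 and negative 2. All these levels share library depth and scaling.

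**Figure D4:**
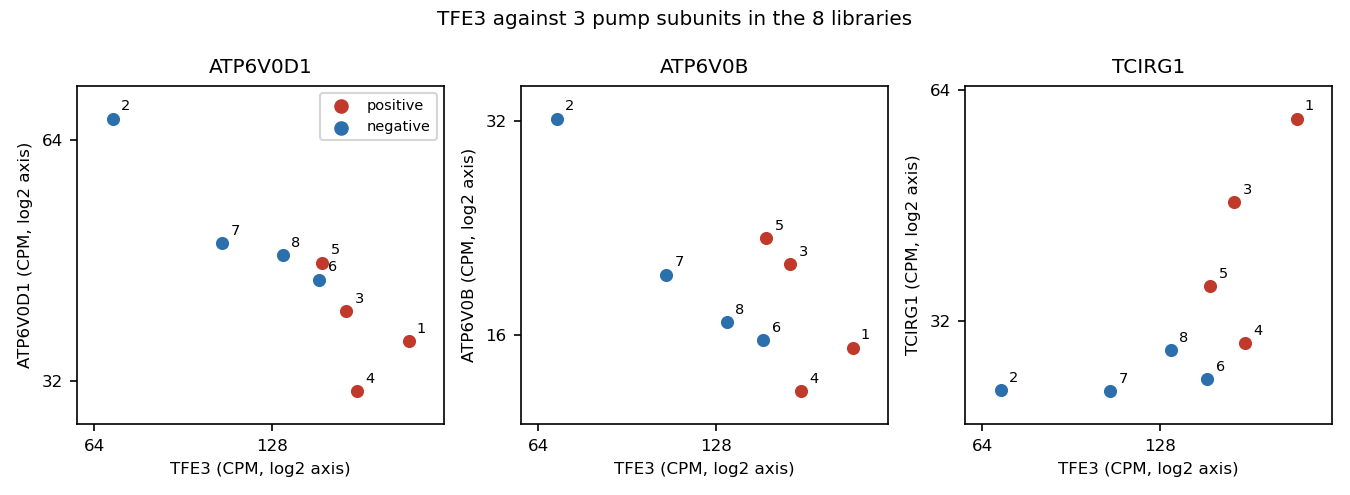
CPM of ATP6V0D1, ATP6V0B and TCIRG1 against CPM of TFE3 in the 8 libraries (both axes on a log2 scale, positive in red, negative in blue, library numbers beside the points). ATP6V0D1 is lower and TCIRG1 higher where TFE3 is higher, and for ATP6V0B negative 2 stands far from the other 7 libraries, which are mixed.

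Among 9421 genes of at least 5 CPM, those whose log2-CPM was most like TFE3 over the 8 libraries were LRP4, HEXDC and C17orf99 (r = 0.99, 0.99 and 0.98, and 0.96, 0.96 and 0.93 without positive 1 and negative 2). Those most like TCIRG1 were FAM227A, FUT10 and PHF1 (r = 0.98, 0.96 and 0.96, and 0.93, 0.92 and 0.99 without those libraries). These genes were picked for the highest r among 9421 over only 8 libraries, so high values follow from the choice. The values without positive 1 and negative 2 reuse the remaining libraries and are no independent check.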

How the data were processed

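RNA of sorted A549 cells was extracted with Trizol and made into libraries with a targeted amplicon kit for the human transcriptome (Ion Torrent), per the labels' protocols. The submitters' processing notes name fastp 0.20.1, Salmon 1.9 and GRCh38. Deposited values were unscaled estimated counts of genes, all whole, so rounding altered nothing. No source used here gives the transcript annotation, strand setting or row filter. Gene positions are from GENCODE and start regions from RefSeq, both on GRCh38.

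Rows were kept by filterByExpr (minimum count 10, total 15), leaving 11351 of 13841, and tested with edgeR 4.0.16 (TMM scaling, quasi-likelihood test with robust dispersions, run in R 4.3.3) and Benjamini-Hochberg adjustment over all of them. Groups came from the library titles. Log2-CPM used a prior count of 2. Exact two-sided permutation tests used all 70 assignments of 4 against 4. DESeq2 1.42.0 and limma 3.58.1 (voom with library weights) were alternatives, with other scalings, filters and left-out libraries. The method was tested on simulated counts with less spread than these libraries and larger planted changes than those of the 10 genes. That trial therefore does not measure how well changes of the size seen here are found. Counts of every library pair differed beyond sampling noise (lowest chi-square per degree of freedom 7.28). The genes with their lists, tests and alternatives were chosen with earlier results of these data known. Named were the 10 genes, the 3 of smallest p in each further list, every tested relative of the a, c, d and e subunits and of TFE3, and the genes most like TFE3 and TCIRG1. A gene that this rule names is not reported here. FLCN, MPP5, EIF2S1, the accessory subunits, the remaining tested subunits and genes with few counts were named after their values were seen. Precision was limited by the 4 libraries of a group, and for genes of few counts by counting noise as well. The 10 genes had 64 to 3194 counts per library, ATP6V1A among the lowest at 64 to 138. Intervals cover the spread between libraries.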

Additional observations from a re-analysis of the deposited data

Results flagged for a closer look

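In the 20 groups of 4 libraries formed by 10 genes and 2 conditions, 3 had a library far from the others by Dixon's gap ratio at its 95% critical value, and chance marks about 1 group in 20. Negative 2 was high for ATP6V0E1 (0.837), negative 7 was high for ATP6V0C (0.842) and positive 1 was low for ATP6V1D (0.896). Without that library the log2 fold change was -0.40 for ATP6V0E1, -0.046 for ATP6V0C and -0.28 for ATP6V1D.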

How the results depend on the processing

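Directions of TCIRG1, TFE3, ATP6V0E1, ATP6V0C, ATP6V0D1, ATP6V1A, ATP6V1C1 and ATP6V1D held in all 17 alternatives, and no alternative put any of the 10 genes past an adjusted p of 0.05 (smallest 0.139, ATP6V0E1 with DESeq2). ATP6V0B turned to 0.047 with limma voom and 0.11 without both positive 1 and negative 2, and ran from -0.37 to 0.049 with single libraries left out. ATP6V1H turned to -0.041 with limma voom and ran from -0.11 to 0.24 likewise. The cause was not tested. The count of 5 genes at an unadjusted p under 0.05 was 3 with upper quartile scaling, library totals, at least 50 counts, limma voom or without both positive 1 and negative 2, and 3 to 4 with single libraries left out, at 9.7% to 17.2% of all genes. TCIRG1 and TFE3 were in it every time. Over all genes, DESeq2's Wald test called 52, limma voom 0, and leaving out single libraries gave 0 to 1 (1 without negative 6 or negative 8). The median difference of V0 and V1 stayed between -0.035 and 0.13. Scaling by library totals moved the median of all genes from -0.019 to 0.097. No paired analysis was possible because each library number was used once in the labels.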
